A study of Homo sapiens with 23 samples.

Results

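The transcription factor MYC and a set of genes of ribosome biogenesis were followed in MCF10A breast epithelial cells and in a line derived from them that carries ErbB2*, each grown in 2D and in 3D culture. The set was a list of 39 genes. A gene was measured through its brightest bead-array probe among those detected above background (detection p under 0.05) on at least 5 arrays, and 35 of the 39 genes passed, out of 10954 genes tested in the series. NPM1 had 1 probe, detected on 1 array only. GNL3, WDR43 and DDX18 were not in the probe annotation used here, so no value is given for them.

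Ribosomes are assembled in the nucleolus. RNA polymerase I transcribes a long precursor RNA, small nucleolar ribonucleoproteins modify it, and the processome and later factors cut it and fold it into the small and large subunits. MYC is a transcription factor that binds the E-box sequence CACGTG and is known to raise transcription of many of these genes, together with genes of polyamine and pyrimidine synthesis. In breast epithelium it is one of the genes that growth factor receptor signalling can induce, and ErbB2 (HER2) is such a receptor.

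MCF10A is an established, non-tumorigenic human breast epithelial line. The 4 groups were WT cells in 2D (6 arrays), WT cells in 3D (5 arrays), ErbB2* cells in 2D (6 arrays) and ErbB2* cells in 3D (6 arrays), with 1 array of total RNA per sample. The labels give neither the ErbB2* construct, its promoter, the meaning of the asterisk nor whether the line is a clone, and they do not describe the 3D culture or its duration. Whether replicates were separate cultures is not stated, so the p-values reflect the variation among these samples alone, and that variation may be technical.

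WT 3D replicate 5 stood apart. Its mean signal was 151 and 19.1% of its probes were detected, against 334 to 582 and 30.9% to 34.6% on the other 22 arrays. Its labels also conflict, since title, source and description place it with WT cells in 3D and the cell line field names ErbB2*. It was kept in the group of its title, and the members' results that rest on it are also given without it. Of 10 listed markers of basal mammary epithelium 8 were measured and detected on every array of every group, and in ErbB2* against WT cells 8 fell in 2D and 6 in 3D. Of 9 luminal markers ESR1, PGR, KRT19 and ELF5 were detected on no array of any group and 5 were tested. Of these KRT8 rose in ErbB2* against WT cells by 0.67 in 2D and 1.03 in 3D, FOXA1 rose by 0.94 in 3D, and none fell between the lines. Also detected on no array of any group were CD3D and ITGAM of the leukocyte list and COL1A2 and COL3A1 of the fibroblast list. So were CDH5 and VWF of the endothelial list, while other genes of those 3 lists were detected and changed. Of 5 leukocyte genes tested, 2 rose with 3D culture in WT cells, where CSF1R rose by 2.63 on the log2 scale, and 1 rose and 1 fell in ErbB2* cells. Of 5 fibroblast genes tested, FAP and DCN rose with 3D culture in ErbB2* cells by 1.04 and 0.78. Their culture changes differed between the lines. LUM was detected on no array of WT 2D, WT 3D or ErbB2* 2D and passed the detection filter through ErbB2* 3D alone. Its rise of 1.17 and its difference between the lines are therefore given no weight. The summed signal of the fibroblast list was 9522 to 11178 in ErbB2* 3D, 5688 to 6238 in ErbB2* 2D, 2733 to 3364 in WT 3D and 3701 to 3957 in WT 2D. Of 3 endothelial genes tested, 2 fell with 3D culture in WT cells and 2 rose in ErbB2* against WT cells in 3D. Among the proliferation genes, 25 in number, 21 fell with 3D culture in WT cells and 19 in ErbB2* cells, with median log2 changes of -0.81 and -0.69 (23 and 22 genes without WT 3D replicate 5). The part of these lists in the members' changes was not tested. In bulk samples such as these, fewer cells expressing a gene and less RNA of it per cell cannot be told apart.

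MYC transcript was lower in 3D than in 2D culture in ErbB2* cells, at 0.697 times the 2D level. In 2D it was somewhat higher in ErbB2* than in WT cells, and that difference passed the test once WT 3D replicate 5 was left out. The normalised log2 signal of MYC in WT 2D was lowest at 11.83, with a median of 12.16 and a highest value of 12.30. In WT 3D the 5 arrays read 11.83, 11.76, 11.97, 11.94 and, on replicate 5, 11.08. ErbB2* 2D arrays ran from 12.32 through a median of 12.46 to 12.62, and ErbB2* 3D arrays from 11.81 through 11.88 to 12.17. All 6 ErbB2* 2D arrays were above all other arrays of the study. In ErbB2* cells MYC fell by 0.52 on the log2 scale with 3D culture (SE 0.13, adjusted p = 0.00447 by limma), and the 6 arrays of each group did not overlap. In WT cells it fell by 0.42 (SE 0.14, adjusted p = 0.0243), but without replicate 5 the change was -0.26 (SE 0.10, adjusted p = 0.0594) and 1 WT 2D array at 11.83 lay among the 3D arrays. ErbB2* minus WT was 0.34 in 2D (SE 0.13, 95% interval 0.07 to 0.61, adjusted p = 0.0922), and with a smaller spread once replicate 5 was left out MYC rose (SE 0.09, adjusted p = 0.00877). The line difference in 3D amounted to 0.23 (SE 0.14, adjusted p = 0.227) and 0.07 without replicate 5 (95% interval -0.14 to 0.29). The change with culture did not differ detectably between the lines, at -0.11 (95% interval -0.49 to 0.28, adjusted p = 0.738), or -0.27 without replicate 5 (adjusted p = 0.185). The other MYC probe gave changes of the same sign in all 4 comparisons, 0.20, 0.11, -0.29 and -0.38.

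**Figure D1:**
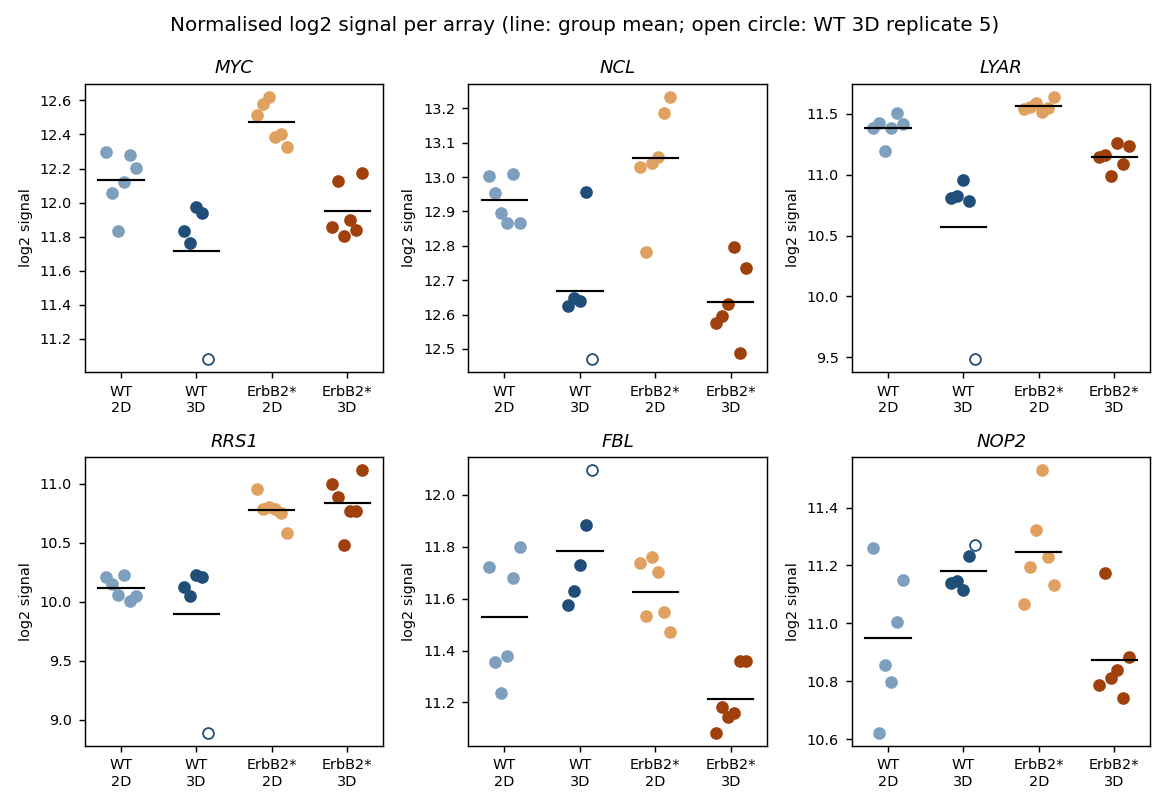
Normalised log2 signal of 6 members on each array (points), by line (WT, ErbB2*) and culture (2D, 3D), with the group mean as a line; each vertical axis has its own range. MYC is highest on the 6 ErbB2* 2D arrays, RRS1 is higher in ErbB2* than in WT cells in both cultures, FBL is lowest in ErbB2* 3D, and WT 3D replicate 5 (open circle) is far below its group for MYC, LYAR and RRS1.

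With all arrays in the fit the share of members called was close to that of all genes in each comparison, while the calls leaned to higher in ErbB2* 3D and to lower in WT 3D. In 2D, 4 of 35 members (11.4%) were called between ErbB2* and WT cells, 2 higher and 2 lower, where 13.1% of all genes were called, 7.78% higher and 5.33% lower. In 3D, 8 members (22.9%) were called, 7 higher and 1 lower, against 22.3% of all genes, of which 11.6% were higher and 10.7% lower. With 3D culture 11 members (31.4%) fell and 0 rose in WT cells, against 29.6% of all genes, of which 15.3% fell and 14.3% rose. In ErbB2* cells 3 rose and 6 fell, 25.7% of members against 22.4% of all genes (10.3% higher, 12.1% lower). Both leaning comparisons contain the WT 3D group. Without WT 3D replicate 5 the WT culture comparison held 2 members that rose and 7 that fell, against 33.7% of all genes (17.1% higher, 16.6% lower), with 6 members called both with and without it. When WT 2D replicates 2, 3 and 4 were left out instead, 2 of the 11 WT culture calls held, the falls of LYAR and MYC, with a background of 17.2%. The remaining counts without that array were 9 in 2D (7 higher, 2 lower, background 23.2%, as 12.7% higher and 10.5% lower), 11 in 3D (10 higher, 1 lower, background 27.7%, as 13.7% higher and 14% lower) and 17 for culture in ErbB2* cells, 48.6% of members (7 higher, 10 lower, background 36.3%, as 17.1% higher and 19.2% lower). That last count includes POLR1A and UTP20, which were detected on 0 and 1 of the 6 ErbB2* 2D arrays and on 3 of the 6 ErbB2* 3D arrays each, and which passed the detection filter through the 3D arrays, so their calls are given no weight. The 2D and the ErbB2* culture contrasts do not contain that array, and their fitted changes were the same without it while their standard errors were smaller.

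The median log2 change of the members was 0.04 for ErbB2* minus WT in 2D, 0.13 in 3D, -0.22 for 3D minus 2D in WT cells and -0.04 in ErbB2* cells. The medians of all 10954 genes were 0.01, 0.04, -0.06 and -0.02. With arrays scaled to their medians in place of quantile normalisation, the median of all genes itself moved to 0.20, 0.40, -0.34 and -0.14, and the members' medians relative to it were 0.09, 0.34, -0.18 and -0.06, against 0.03, 0.10, -0.16 and -0.02 as reported. Under that scaling the calls were 1 higher and 0 lower, 3 higher and 0 lower, 0 higher and 1 lower, and 0 of either kind. The share of all genes called under that scaling is not given here. The calls that held were NOP14 in 2D, RRS1, DDX10 and POLR1B in 3D, and MYBBP1A with culture in WT cells. Groups were free of overlap for 6, 7, 4 and 7 of the 35 members, where 11.8%, 14.8%, 16.3% and 19.9% of all genes were. With all arrays 1 called change reached 2-fold, the fall of MYBBP1A in WT cells, and it fell short of that without WT 3D replicate 5. In 1 or more of the 4 pairwise comparisons 20 members were called (57.1%, against 48.3% of all genes), and without WT 3D replicate 5 this was 77.1%, POLR1A and UTP20 included, against 61.3%. The other 15 were called in none, and 8 of them in none with or without WT 3D replicate 5, namely NOP58, NOP16, PES1, RRP9, RRP12, PPAN, HEATR1 and CAD. Comparisons that share a group share its arrays, so a low or high group enters more than 1 of these counts.

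**Figure D2:**
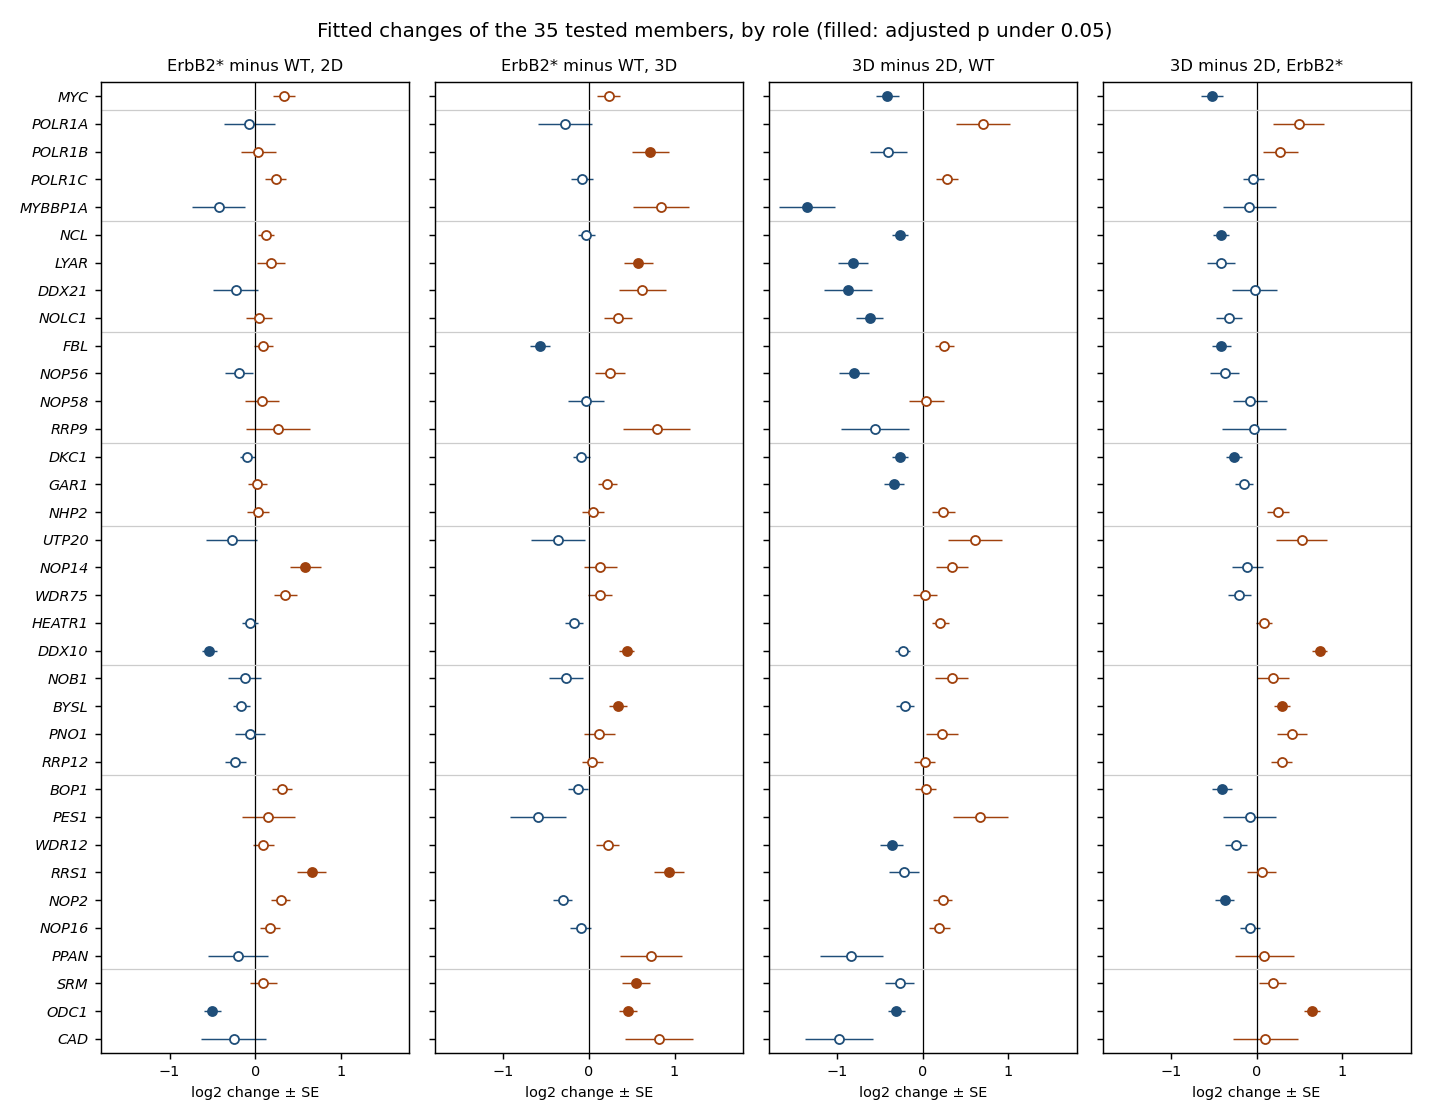
Fitted log2 change with its standard error (horizontal axis) of the 35 tested members in the 4 pairwise comparisons, ordered by role from MYC at the top to polyamine and pyrimidine synthesis at the bottom; filled points passed an adjusted p of 0.05. The filled points are scattered over the roles, 4, 8, 11 and 9 in number from left to right, and those of WT culture all lie below 0.

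The promoters of 6 members with a promoter entry are printed, ranked by largest called change separately with and without the canonical E-box CACGTG. The motif was sought in a window from 250 bases before to 50 after the annotated start. Printed are the 3 members with the largest called changes among those with it, and the 3 among those without it. Sequences are those of RefSeq on GRCh38.p14, written 5′ to 3′ along the gene, with the E-box in capitals.
MYBBP1A, chr17:4555335-4555634, minus strand: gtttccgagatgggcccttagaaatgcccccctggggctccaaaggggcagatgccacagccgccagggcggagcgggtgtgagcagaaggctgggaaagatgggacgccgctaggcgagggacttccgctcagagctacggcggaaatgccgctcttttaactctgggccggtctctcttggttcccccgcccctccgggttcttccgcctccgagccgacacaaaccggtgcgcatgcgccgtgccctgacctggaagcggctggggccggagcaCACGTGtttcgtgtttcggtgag
ODC1, chr2:10447963-10448262, minus strand: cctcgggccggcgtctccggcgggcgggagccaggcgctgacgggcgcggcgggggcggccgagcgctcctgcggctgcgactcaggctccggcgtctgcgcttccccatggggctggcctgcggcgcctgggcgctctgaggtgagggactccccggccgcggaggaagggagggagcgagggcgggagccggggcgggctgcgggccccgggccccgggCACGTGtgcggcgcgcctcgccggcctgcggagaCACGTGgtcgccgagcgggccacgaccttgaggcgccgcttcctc
DDX21, chr10:68956397-68956696, plus strand: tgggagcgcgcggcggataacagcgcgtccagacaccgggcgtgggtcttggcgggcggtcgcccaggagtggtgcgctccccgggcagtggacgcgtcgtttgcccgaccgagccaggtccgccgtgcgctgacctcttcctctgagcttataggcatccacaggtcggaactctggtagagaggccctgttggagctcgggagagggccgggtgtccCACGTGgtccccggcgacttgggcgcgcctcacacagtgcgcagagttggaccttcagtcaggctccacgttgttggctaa
DDX10, chr11:108664819-108665118, plus strand: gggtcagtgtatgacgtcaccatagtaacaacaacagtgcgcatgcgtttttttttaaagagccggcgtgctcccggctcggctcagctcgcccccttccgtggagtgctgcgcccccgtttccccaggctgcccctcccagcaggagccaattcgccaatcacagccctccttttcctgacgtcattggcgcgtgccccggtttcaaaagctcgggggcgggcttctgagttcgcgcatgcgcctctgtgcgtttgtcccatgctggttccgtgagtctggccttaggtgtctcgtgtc
NOP56, chr20:2652382-2652681, plus strand: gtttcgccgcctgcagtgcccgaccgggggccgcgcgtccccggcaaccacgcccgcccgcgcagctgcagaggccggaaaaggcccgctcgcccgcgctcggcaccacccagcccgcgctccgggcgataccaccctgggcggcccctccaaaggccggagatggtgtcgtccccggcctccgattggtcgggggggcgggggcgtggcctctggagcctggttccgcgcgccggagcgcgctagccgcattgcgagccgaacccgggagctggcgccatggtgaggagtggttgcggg
POLR1B, chr2:112541786-112542085, plus strand: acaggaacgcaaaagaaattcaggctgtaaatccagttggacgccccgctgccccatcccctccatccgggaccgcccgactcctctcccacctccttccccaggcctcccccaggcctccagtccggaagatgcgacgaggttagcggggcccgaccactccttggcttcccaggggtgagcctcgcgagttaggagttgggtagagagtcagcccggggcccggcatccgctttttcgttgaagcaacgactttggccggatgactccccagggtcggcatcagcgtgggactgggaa
MYBBP1A holds CACGTG 27 bases past the start, ODC1 holds it 29 bases before and again 5 bases past the start, and DDX21 holds it 31 bases before. ODC1, DDX21 and POLR1B have another window in the table, at an alternative start, and for POLR1B neither holds the motif. RefSeq windows were listed for 32 of the 39 members, and 16 of them (50%) held CACGTG in at least 1 window, counted on both strands, which for this palindrome are the same letters. Among all 27305 genes with a window the share was 8.77%, and among the 8979 tested genes with one it was 12.8%. Of the 29 tested members with a window 14 held it (48.3%). The related letters CACGCG were in windows of 10 members (31.25%), of 22.2% of the tested genes and of 13.5% of all genes. The genes shown were chosen by the size of their called changes, so their directions say nothing about the motif. The 3 genes with the motif fell with 3D culture in WT cells, as did NOP56 without it. ODC1 did not pass the test there without WT 3D replicate 5, and it rose with 3D culture in ErbB2* cells. A match of letters is a description and not a binding site.

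Of the genes grouped under RNA polymerase I, MYBBP1A fell and POLR1B rose, each in 1 comparison, and POLR1A and POLR1C were not called with all arrays in the fit. MYBBP1A encodes a nucleolar protein that takes part in ribosomal RNA synthesis and processing. Its log2 signal in WT 2D was lowest at 6.56, with a median of 7.47 and a highest value of 8.42. WT 3D arrays read 6.58, 6.50, 6.36, 6.44 and, below background on replicate 5, 4.68. Apart from 1 WT 2D array at 6.56, all WT 2D arrays were above all WT 3D arrays. It fell by 1.35 in WT cells with 3D culture (SE 0.33, 0.391 times, adjusted p = 0.00339), and by 1.00 without replicate 5 (SE 0.27, adjusted p = 0.0057). When WT 2D replicates 2, 3 and 4 were left out, the adjusted p was 0.103. In ErbB2* cells its arrays ran from 6.02 through 7.15 to 7.46 in 2D and from 6.68 through 6.87 to 7.38 in 3D, a change of -0.08 (SE 0.31). The difference between the lines in this culture change was 1.27, the largest interaction among the members, and did not pass the test (SE 0.45, adjusted p = 0.0636, and 0.91 with adjusted p = 0.0739 without replicate 5).

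POLR1B encodes the second largest subunit of RNA polymerase I. Its log2 signal ran from 6.47 through 7.05 to 7.22 in ErbB2* 3D, and WT 3D arrays read 6.83, 6.47, 6.31, 6.24 and, below background on replicate 5, 5.40. The groups overlapped, with the lowest ErbB2* array beneath the highest WT array. In 3D it rose by 0.72 in ErbB2* against WT cells (SE 0.21, adjusted p = 0.0177), and by 0.51 without replicate 5 (adjusted p = 0.0422). Its other probe gave 0.64. The catalytic subunit POLR1A was near background, detected on 8 of 23 arrays and on 0 of the 6 ErbB2* 2D arrays, so no fold is given. POLR1C, a subunit shared with RNA polymerase III, changed by between -0.08 and 0.29, with no call except a rise of 0.24 in ErbB2* 2D without WT 3D replicate 5 (adjusted p = 0.0432).

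The 4 measured abundant nucleolar proteins all fell in WT cells with 3D culture, where 15.3% of all genes fell. Without WT 3D replicate 5, 3 of the 4 fell, where 16.6% of all genes fell. With WT 2D replicates 2, 3 and 4 left out, LYAR alone among them kept its call. LYAR is a nucleolar zinc finger protein. Its log2 signal in WT 2D ran from 11.19 through 11.40 to 11.50, and the WT 3D arrays read 10.81, 10.83, 10.95, 10.78 and, on replicate 5, 9.49. In ErbB2* cells it ran from 11.52 through 11.55 to 11.64 in 2D and from 10.99 through 11.16 to 11.26 in 3D. All 3D arrays of a line were below all its 2D arrays, in both lines. LYAR fell in WT cells by 0.81 (SE 0.17, adjusted p = 0.00116), and by 0.54 without replicate 5 (SE 0.08, adjusted p = 8.42e-06). In ErbB2* cells the change was -0.42 (SE 0.17, adjusted p = 0.0767), and it passed the test without replicate 5 (SE 0.07, adjusted p = 5.01e-05). In 3D LYAR rose in ErbB2* against WT cells by 0.58 (SE 0.17, adjusted p = 0.0189), and by 0.31 without replicate 5 (adjusted p = 0.0046), with no overlap either way. The culture changes of the lines differed by 0.40 (adjusted p = 0.292).

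DDX21 is an RNA helicase that takes part in RNA polymerase I transcription and ribosomal RNA processing. WT 2D arrays ran from 11.94 through 12.23 to 12.64 and WT 3D arrays read 11.94, 11.85, 11.61, 11.86 and, on replicate 5, 9.72. The groups did not overlap, though the lowest 2D and the highest 3D array both read 11.94. DDX21 fell by 0.87 (SE 0.28, adjusted p = 0.0208), and by 0.46 without replicate 5 (SE 0.14, adjusted p = 0.0158). With WT 2D replicates 2, 3 and 4 left out the call was lost (adjusted p = 0.26). In ErbB2* cells DDX21 ran from 11.80 through 12.05 to 12.17 in 2D and from 11.69 through 12.08 to 12.27 in 3D, a change of -0.02 (SE 0.26).

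NCL, nucleolin, binds the precursor RNA. In ErbB2* cells it ran from 12.78 through 13.05 to 13.23 in 2D and from 12.49 through 12.61 to 12.80 in 3D, where only the lowest 2D array reached the 3D values. It fell by 0.42 (SE 0.09, adjusted p = 0.00154). WT 2D arrays ran from 12.87 through 12.92 to 13.01, and WT 3D arrays read 12.62, 12.65, 12.64, 12.96 and 12.47. The WT fall of 0.26 (SE 0.10, adjusted p = 0.0423) did not pass without replicate 5 (-0.21, adjusted p = 0.0866) and was lost without any of 9 single arrays in all. NOLC1, which chaperones small nucleolar ribonucleoproteins, fell by 0.62 in WT cells (adjusted p = 0.00542) and by 0.40 without replicate 5 (adjusted p = 0.00391), and its change in ErbB2* cells was -0.32 (adjusted p = 0.143).

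Among the box C/D ribonucleoprotein genes, which guide ribose methylation, NOP56 was called lower with 3D culture in WT cells and FBL in ErbB2* cells, with all arrays in the fit. NOP56 is a core scaffold protein. Its log2 signal in WT 2D ran from 12.05 through 12.29 to 12.57, and WT 3D arrays read 11.62, 11.65, 11.67, 11.81 and 10.66, all below the 2D arrays. It fell by 0.80 (SE 0.18, adjusted p = 0.00148), and by 0.60 without replicate 5 (adjusted p = 0.00149). Its other probes gave -0.36 and -0.71. In ErbB2* cells NOP56 ran from 11.60 through 12.16 to 12.36 in 2D and from 11.52 through 11.71 to 11.97 in 3D, a change of -0.37 (SE 0.17, adjusted p = 0.125) that passed without replicate 5 (adjusted p = 0.0194). There the other probes gave -0.51 and -0.53. The difference between the lines in this change was 0.43, but -0.14 and 0.18 by the other probes, so its sign depended on the probe.

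FBL, fibrillarin, is the methyltransferase of these particles. It ran from 11.47 through 11.63 to 11.76 in ErbB2* 2D and from 11.08 through 11.17 to 11.36 in ErbB2* 3D, without overlap, and fell by 0.41 (SE 0.11, adjusted p = 0.00866). In WT 2D it ran from 11.24 through 11.53 to 11.80, and WT 3D arrays read 11.58, 11.63, 11.73, 11.88 and 12.09, a change of 0.25 (SE 0.12, adjusted p = 0.104). All WT 3D arrays were above all ErbB2* 3D arrays. In 3D FBL fell in ErbB2* against WT cells by 0.57 (SE 0.12, 0.675 times, adjusted p = 0.000896), and by 0.49 without replicate 5 (adjusted p = 0.00175). Under median scaling that value was -0.04 and the call was lost. The interaction of line and culture passed the test at -0.66 (SE 0.16, adjusted p = 0.00623), and at -0.59 without replicate 5. NOP58 and the U3 protein RRP9 were not called in any comparison. Of the box H/ACA genes, which guide pseudouridylation, the pseudouridine synthase DKC1 fell by 0.27 in WT cells (adjusted p = 0.0396) and by 0.26 in ErbB2* cells (adjusted p = 0.0403), and the WT call was lost without replicate 5 (-0.23, adjusted p = 0.0672) and the calls were lost without any of 6 single arrays in WT and 9 in ErbB2* cells. Its partner GAR1 fell by 0.34 in WT cells (adjusted p = 0.0294), and by 0.46 without replicate 5 (adjusted p = 0.000368), when it also rose in ErbB2* against WT cells in 3D (0.34, adjusted p = 0.00696). The WT call of GAR1 was lost without WT 2D replicate 6 or any of WT 3D replicates 1 to 4. NHP2, the third partner measured, changed by 0.24 and 0.25 with culture in the WT and ErbB2* lines. Without replicate 5 it rose in both, by 0.42 in WT (adjusted p = 0.000617) and by 0.25 in ErbB2* cells (adjusted p = 0.0132).

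Of the processome genes, DDX10 was free of overlap between the groups of all 4 comparisons. DDX10 is a DEAD-box RNA helicase whose yeast counterpart is needed for small subunit RNA processing. Its log2 signal in WT 2D ran from 10.35 through 10.54 to 10.68, and WT 3D arrays read 10.25, 10.30, 10.22, 10.35 and 10.35. ErbB2* 2D arrays ran from 9.83 through 9.98 to 10.20 and ErbB2* 3D arrays from 10.55 through 10.73 to 10.97. The ErbB2* 2D arrays were below all others. In 2D DDX10 fell in ErbB2* against WT cells by 0.53 (SE 0.09, 0.69 times, adjusted p = 9.75e-05). In 3D it rose by 0.44 (SE 0.09, adjusted p = 0.000981), and by 0.45 without replicate 5. In ErbB2* cells it rose by 0.74 with 3D culture (SE 0.09, 1.67 times, adjusted p = 7.87e-07), and in WT cells the change was -0.24 (SE 0.09, adjusted p = 0.0545), or -0.25 with a call without replicate 5 (adjusted p = 0.0434). The difference between the lines was 0.98 (SE 0.13, adjusted p = 6.36e-06), and 0.99 without replicate 5. Under median scaling only the DDX10 call between the lines in 3D held.

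NOP14, a scaffold of the processome, ran from 8.57 through 8.74 to 9.01 in WT 2D and from 8.92 through 9.33 to 9.82 in ErbB2* 2D. The 2 groups overlapped on a single stretch, between 8.92 and 9.01. NOP14 rose in ErbB2* cells by 0.58 (SE 0.18, 1.5 times, adjusted p = 0.0328), with an adjusted p of 0.00168 when WT 3D replicate 5 was omitted. The call was lost when any of 7 single arrays was left out. In 3D it ran from 8.96 through 9.23 to 9.47 in ErbB2* cells, and WT arrays read 8.93, 8.80, 8.69, 9.11 and 9.99, a difference of 0.13 (adjusted p = 0.641). WDR75 was higher on every ErbB2* 2D than on every WT 2D array, with a change of 0.35 (adjusted p = 0.0879) that passed without WT 3D replicate 5 (adjusted p = 0.00424). HEATR1 changed by between -0.18 and 0.20 without a call, and UTP20 was detected on 11 of 23 arrays and on 1 of the 6 ErbB2* 2D arrays. Without WT 3D replicate 5, WDR75 also rose in ErbB2* against WT cells in 3D by 0.31 (adjusted p = 0.0219).

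Among the late small-subunit factors BYSL was called and the other members, with all arrays in the fit, were not. BYSL acts late in small-subunit maturation. It ran from 9.74 through 9.92 to 10.02 in ErbB2* 2D and from 9.99 through 10.25 to 10.38 in ErbB2* 3D, and rose by 0.30 (SE 0.10, adjusted p = 0.0291). That call was lost when any of 6 single arrays was left out, ErbB2* 2D replicates 4 and 6 and ErbB2* 3D replicates 1, 3, 4 and 6. In WT 2D it ran from 9.84 through 10.03 to 10.35, and WT 3D arrays read 9.84, 9.83, 9.97, 10.06 and 9.63, a change of -0.21 (adjusted p = 0.132). The lines differed in this change by 0.50 (SE 0.14, adjusted p = 0.0173). In 3D BYSL rose in ErbB2* against WT cells by 0.34 (adjusted p = 0.0179), a call lost when the other 2 groups were left out of the model (adjusted p = 0.0703). Without replicate 5 these values were 0.44 (adjusted p = 0.0192) and 0.28 (adjusted p = 0.0367). The endonuclease NOB1, its partner PNO1 and the export factor RRP12 changed by between -0.27 and 0.41. Without WT 3D replicate 5, PNO1 rose in ErbB2* cells with 3D culture (0.41, adjusted p = 0.00649) and in ErbB2* against WT cells in 3D (0.37, adjusted p = 0.035), and NOB1 rose in WT cells with 3D culture (0.49, adjusted p = 0.0455).

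Of the 7 measured factors of the large subunit, RRS1 marked the difference between the lines. RRS1 helps to bring the 5S ribonucleoprotein into the large subunit. Its log2 signal in WT 2D ran from 10.01 through 10.10 to 10.23, and in ErbB2* 2D from 10.58 through 10.79 to 10.95. WT 3D arrays read 10.12, 10.05, 10.23, 10.21 and, on replicate 5, 8.89, and ErbB2* 3D arrays ran from 10.48 through 10.83 to 11.11. All ErbB2* arrays were above all WT arrays. RRS1 rose in ErbB2* cells by 0.66 in 2D (SE 0.17, 1.58 times, adjusted p = 0.00853) and by 0.94 in 3D (SE 0.18, 1.91 times, adjusted p = 0.000376). Without replicate 5 the 3D value was 0.68 (SE 0.10, adjusted p = 1.73e-05), and the 2D call had an adjusted p of 6.81e-06. Under median scaling the 2D call was lost (0.91, adjusted p = 0.337), as it was without either set of 3 WT 2D arrays described further on (adjusted p = 0.0673 and 0.0571). Its change with culture was -0.22 in WT cells and 0.06 in ErbB2* cells, neither called.

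BOP1, PES1 and WDR12 form a complex needed for large-subunit RNA processing, and its members were not called together. BOP1 fell in ErbB2* cells with 3D culture by 0.40 (SE 0.12, adjusted p = 0.0135), and without WT 3D replicate 5 it also rose in ErbB2* against WT cells in 2D (0.31, adjusted p = 0.0252). WDR12 fell in WT cells by 0.36 (adjusted p = 0.0398), a call lost without replicate 5 (adjusted p = 0.0899) or any of WT 2D replicates 1 to 5 and not shared by its other probe, at -0.03. PES1 was not called in any comparison. NOP2, which methylates large-subunit ribosomal RNA, ran from 11.07 through 11.21 to 11.53 in ErbB2* 2D and from 10.74 through 10.82 to 11.17 in ErbB2* 3D. It fell by 0.37 (SE 0.11, adjusted p = 0.0146), with 1 overlapping 3D array. In WT 2D it ran from 10.62 through 10.93 to 11.26 and WT 3D arrays read 11.14, 11.15, 11.11, 11.23 and 11.27, a change of 0.23 (adjusted p = 0.128). The lines differed in this change by -0.60 (SE 0.16, adjusted p = 0.0106, and -0.58 without replicate 5), but a dimmer probe detected on all arrays gave culture changes of 0.08 and -0.03. NOP16 and PPAN were not called in any comparison.

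ODC1 had the same order of changes as DDX10, with opposite signs of the line difference in 2D and 3D. ODC1, ornithine decarboxylase, is the rate-limiting enzyme of polyamine synthesis and a classical MYC target. Its log2 signal in WT 2D ran from 12.42 through 12.63 to 12.89, and WT 3D arrays read 12.27, 12.47, 12.36, 12.63 and 12.002. ErbB2* 2D arrays ran from 11.99 through 12.18 to 12.19 and ErbB2* 3D arrays from 12.75 through 12.81 to 12.83. All ErbB2* 3D arrays were above all WT 3D arrays, and the ErbB2* 2D arrays were below WT 3D replicates 1 to 4, with replicate 5 inside their range. In 2D ODC1 fell in ErbB2* against WT cells by 0.50 (SE 0.10, 0.707 times, adjusted p = 0.000649). In 3D it rose by 0.46 (SE 0.10, adjusted p = 0.00185), and by 0.37 without replicate 5. With 3D culture it rose in ErbB2* cells by 0.65 (SE 0.10, 1.57 times, adjusted p = 2.02e-05) and fell in WT cells by 0.31 (SE 0.10, adjusted p = 0.0251), the latter not passing without replicate 5 (-0.22, adjusted p = 0.0634), WT 3D replicate 1 or WT 2D replicates 2 or 4. The difference between the lines was 0.96 (SE 0.14, adjusted p = 3.13e-05), and 0.87 without replicate 5. MYC and ODC1 thus moved in opposite directions with 3D culture in ErbB2* cells, where MYC fell. Under median scaling neither change was called, nor were the other ODC1 changes given here.

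SRM, spermidine synthase, rose in ErbB2* against WT cells in 3D by 0.55 (SE 0.17, adjusted p = 0.0199), from WT readings of 10.26, 10.16, 10.29, 10.31 and 9.87 to a range of 10.42 through 10.63 to 11.42. Without WT 3D replicate 5 the rise was 0.47 (adjusted p = 0.0381), and the call was lost without the highest ErbB2* array (adjusted p = 0.0502). CAD encodes the enzyme that starts pyrimidine synthesis. WT 2D arrays ran from 7.44 through 7.97 to 8.42, and WT 3D arrays read 7.63, 7.54, 7.60, 7.71 and, below background on replicate 5, 4.58. ErbB2* arrays ran from 7.35 through 7.83 to 7.94 in 2D and from 7.30 through 7.90 to 8.46 in 3D. The 4 groups overlapped, and the interaction of 1.07 was not called (SE 0.55, adjusted p = 0.208) and was 0.47 without replicate 5.

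**Figure D3:**
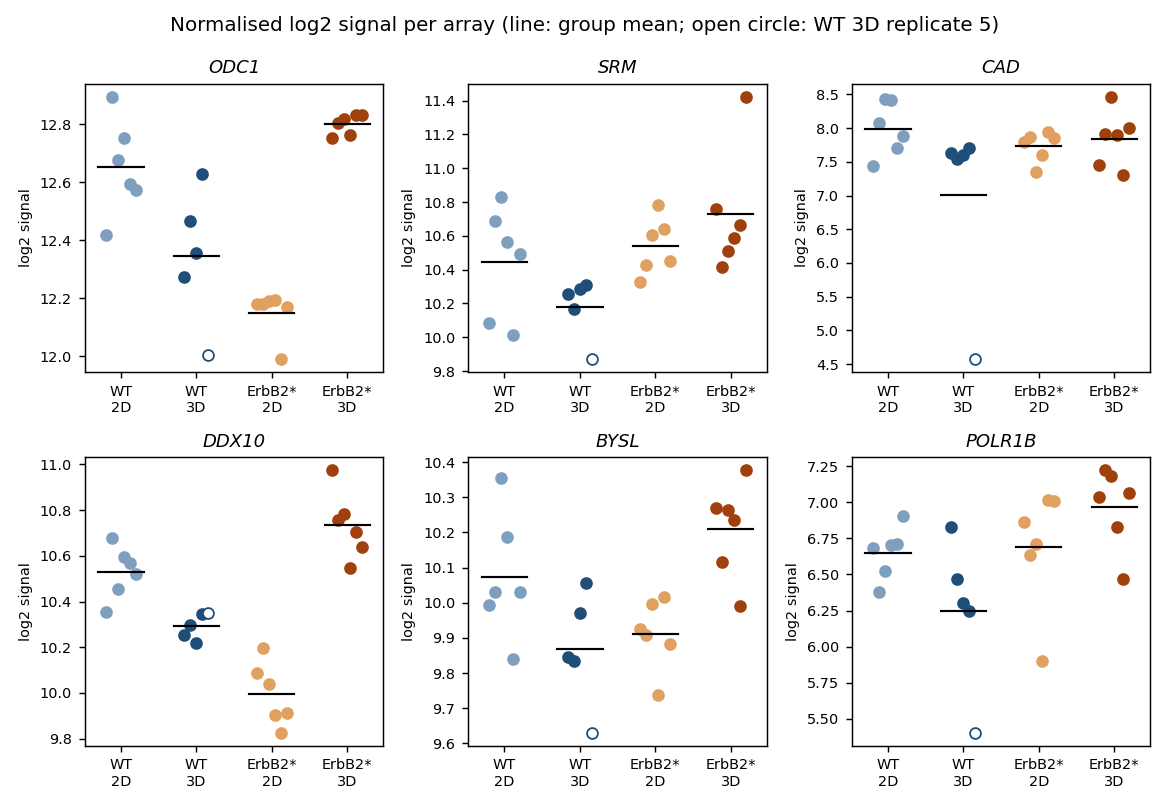
Normalised log2 signal per array (points) of 6 members, with group means as lines and WT 3D replicate 5 as an open circle; each vertical axis has its own range. The group means of ODC1 and DDX10 are lowest in ErbB2* 2D and highest in ErbB2* 3D, while the 4 groups of CAD overlap and its WT 3D mean includes 1 array at 4.58.

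Compared across lines, 5 members differed in their response to 3D culture, 3 with a higher and 2 with a lower change in ErbB2* cells, which is 14.3% of members against 15.1% of all genes (6.73% higher, 8.33% lower). They were DDX10, ODC1, BYSL, FBL and NOP2. The same 5 were called without WT 3D replicate 5, together with BOP1 at -0.54 (adjusted p = 0.0111), against a background of 21.5% (9.76% higher, 11.8% lower). With WT 2D replicates 2, 3 and 4 left out, 2 members were called (background 8.22%). Under median scaling 0 members were called in this test.

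**Figure D4:**
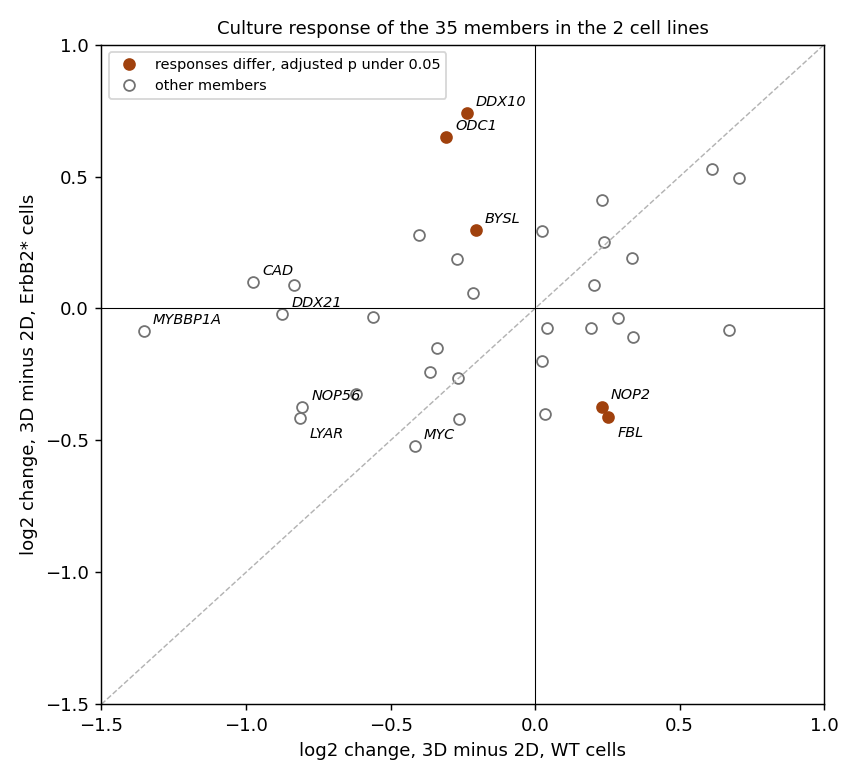
Log2 change with 3D culture of each of the 35 members in WT cells (horizontal axis) and ErbB2* cells (vertical axis), with the dashed line marking equal change. DDX10, ODC1 and BYSL lie above 0 in ErbB2* and below 0 in WT cells, FBL and NOP2 the other way round, and MYBBP1A, CAD and DDX21 lie far to the left, with interactions that did not pass the test.

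WT 2D arrays fell into 2 sets of 3. The leading component of those 6 arrays, with 46.5% of their variance, separated replicates 1, 5 and 6 from 2, 3 and 4, and no label names a difference between the sets. Of the 35 members 15 did not overlap between the sets, 7 higher in 1, 5 and 6 and 8 higher in 2, 3 and 4, where 30.8% of all genes did not overlap. MYBBP1A differed by -0.87 between the sets, CAD by -0.63, DDX21 by -0.57, SRM by -0.50, NOP56 by -0.39, FBL by 0.41, NOP2 by 0.38 and MYC by 0.26 (replicates 1, 5 and 6 minus 2, 3 and 4). Their part in the comparisons with WT 2D was not tested beyond leaving out each set. Without 2, 3 and 4, 2 members were called in 2D (background 7.81%) and 2 for culture in WT cells (background 17.2%), and without 1, 5 and 6 there were 8 in the test of the interaction (background 18.3%). With 1, 5 and 6 left out, 16.3% of all genes were called in 2D and 26.5% for culture in WT cells.

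Other genes of the pathway were counted in the same way, where of all genes 14.3% rose and 15.3% fell with culture in WT cells, and 10.3% rose and 12.1% fell in ErbB2* cells. No list was tested against other genes. Of 35 other processome genes 0 were called between the lines in 2D, 1 rose and 2 fell in 3D, 2 rose and 2 fell with culture in WT cells, and 0 rose and 5 fell (14.3%) in ErbB2* cells. Without WT 3D replicate 5 there were 2 and 4 in WT cells and 2 and 12 in ErbB2* cells, where the background was 17.1% and 19.2%. Among them NAT10, which acetylates small-subunit RNA, fell by 0.52 in ErbB2* cells with 3D culture (adjusted p = 0.00865). Of 47 other large-subunit factors 2 rose and 6 fell (12.8%) with culture in WT cells, and 2 rose and 8 fell (17.02%) in ErbB2* cells, where NVL fell by 0.59 (adjusted p = 0.00836) and WDR18 by 0.53 (adjusted p = 0.0025). Of 19 exosome and RNase MRP genes 4 fell (21.1%) and 1 rose in WT cells and 6 fell (31.6%) and 1 rose in ErbB2* cells, and EXOSC9, a subunit of the exosome, fell by 0.71 and 0.73. Without WT 3D replicate 5 the WT culture counts were 3 higher and 13 lower for the large-subunit factors and 2 higher and 7 lower for the exosome list, against 17.1% and 16.6% of all genes. Of 12 other late small-subunit genes 2 rose and 1 fell with culture in WT cells and 0 rose and 1 fell in ErbB2* cells (3 and 3, and 2 and 2, without WT 3D replicate 5), and BUD23, a methyltransferase of small-subunit RNA, rose in ErbB2* 3D by 0.65. Of 15 other nucleotide synthesis genes 1 rose and 1 fell with culture in WT cells and 0 rose and 4 fell in ErbB2* cells (2 and 1, and 1 and 4, without that array), where CTPS2, a CTP synthase, fell by 0.73.

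Of 66 cytosolic ribosomal protein genes 10 rose (15.2%) and 0 fell with 3D culture in WT cells, and 7 rose (10.6%) and 2 fell in ErbB2* cells (11 and 0, and 8 and 4, without WT 3D replicate 5). RPL28 rose by 1.29 in WT and 0.77 in ErbB2* cells. Of 17 other RNA polymerase I genes, TAF1A of the promoter selectivity complex fell by 1.74 in WT cells (adjusted p = 0.000367), and by 1.21 without replicate 5. POLR1D, a subunit shared with RNA polymerase III, rose by 0.54 in WT cells and fell by 0.44 in ErbB2* cells with 3D culture, an interaction of -0.99 (adjusted p = 1.91e-05).

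Among 18 measured genes of the MYC network, 2 rose and 1 fell in ErbB2* 2D (4 and 1 without WT 3D replicate 5). MXD4, a MAX partner that opposes MYC, rose in ErbB2* cells in 2D by 1.16 (adjusted p = 2.6e-06). PIM1, a kinase that cooperates with MYC, fell in ErbB2* 2D by 1.00 (adjusted p = 0.00197) and rose with 3D culture in ErbB2* cells by 1.5 (adjusted p = 1.2e-05). MXD3 fell with 3D culture by 0.78 in WT cells (adjusted p = 0.00104) and by 1.11 in ErbB2* cells (adjusted p = 9.74e-06). Of 17 other genes that MYC is known to induce, 2 fell in WT cells with 3D culture, CDC25A by 0.89 and MTHFD2 by 0.60, and 0 were called in ErbB2* cells (1 rose and 6 fell in WT, and 1 fell in ErbB2* cells, without WT 3D replicate 5). Of 7 genes that MYC is known to repress, 3 rose with 3D culture in WT cells and 3 rose and 1 fell in ErbB2* cells (2 fell without that array). GADD45A, a growth arrest gene, rose by 0.80 in WT (adjusted p = 2.48e-06) and by 1.93 in ErbB2* cells (adjusted p = 4.97e-13).

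Of the other polyamine genes, SMOX, which oxidises spermine, rose in ErbB2* against WT cells by 2.08 in 2D (SE 0.13, adjusted p = 4.31e-11) and by 2.13 in 3D (adjusted p = 4.64e-11). Its changes with 3D culture were -1.67 in WT and -1.62 in ErbB2* cells, both called. SAT1, which starts polyamine breakdown, fell in ErbB2* 2D by 0.72 (adjusted p = 4.86e-06) and rose with 3D culture in ErbB2* cells by 1.25 (adjusted p = 6.02e-10), the comparisons in which ODC1 fell and rose. The changes named here for genes outside the list that involve WT 3D arrays also passed the test without WT 3D replicate 5.

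**Figure D5:**
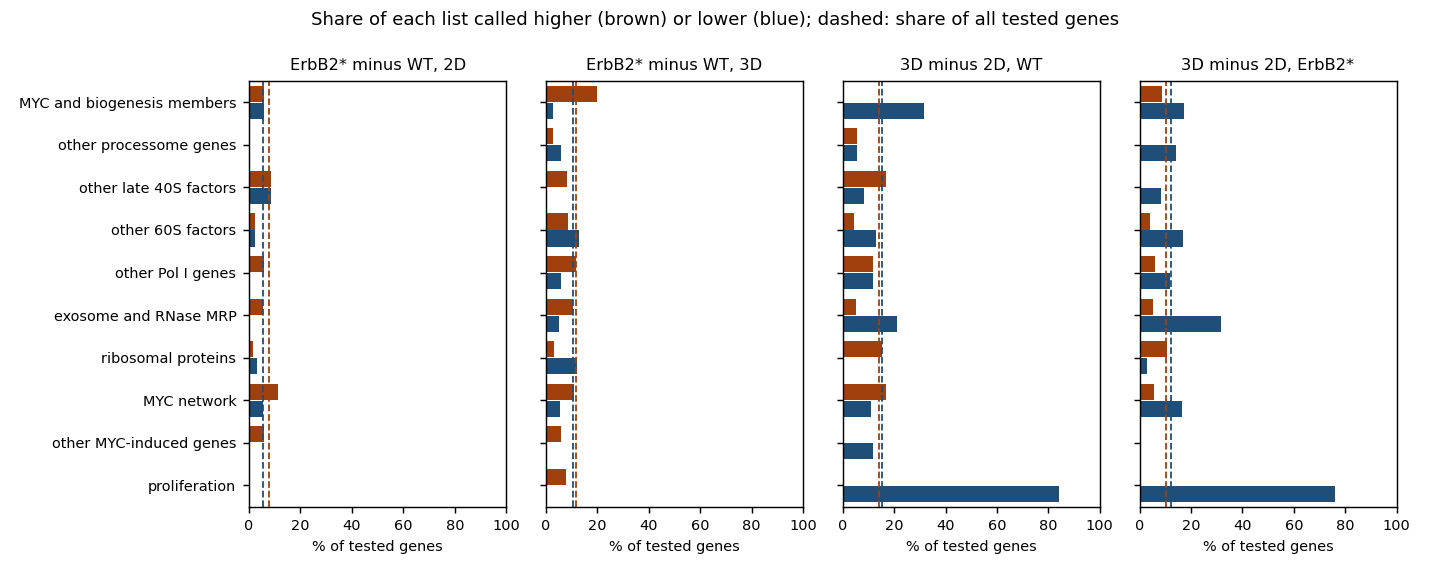
Share of the tested genes of each list (horizontal axis, percent) that rose (brown) or fell (blue) in the 4 pairwise comparisons, with dashed lines at the share of all tested genes. The proliferation list stands far out in both culture comparisons with 21 and 19 of 25 genes lower, and the members have 11 of 35 genes lower and 0 higher with culture in WT cells.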

How the data were processed

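Total RNA of 23 samples was hybridised to Illumina bead arrays of 48803 probes, after biotin labelling per the labels' protocols. The deposited scanner table gives a probe intensity and a detection p-value for each array, and the deposited series table gives the authors' log2 values, with a normalisation that these sources do not state. Intensities were corrected with limma 3.58.1 in R 4.3.3 (neqc, offset 16, quantile normalisation, log2). Probes with detection p under 0.05 on at least 5 arrays were kept (17689, of which 14612 had 1 gene symbol), and the brightest probe stood for its gene. A model with 1 mean per group was fitted by limma to 10954 genes over all 23 arrays, with Benjamini-Hochberg adjustment over all genes and a threshold of 0.05. The steps were tested on simulated data, with the spread taken without WT 3D replicate 5. In the pairwise comparisons 10% to 26% of simulated log2 changes of 0.3 were called, and 42% to 56% of those of 0.5. In the interaction 20% of those of 0.5 were called. A member without a call may therefore still have changed.

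Members and lists were chosen with earlier results of these data known. Values and tests are given for MYC in every comparison, for the 4 members with the largest called change in each comparison and for the 4 largest interactions, and other members by role. Alternatives covered background correction, normalisation, filters, probe choice, array weights, the groups fitted, single arrays and the sets of WT 2D arrays, the last chosen after seeing the data. The groups held 5 or 6 arrays each, and the number of arrays limits the precision. Each p-value also rests on a spread shared by all groups in the fit, including those outside the comparison.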

Additional observations from a re-analysis of the deposited data

Results flagged for a closer look

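Within a group, an array was singled out where its gap to the nearest other array was large against the group's range (Dixon's criterion). For a single test chance does this in about 1 in 20 groups. The 15 items examined in each group were the median of the members and the members named for large changes, MYC included. An array was singled out in 13 of 60 tests, 8 of them for WT 3D replicate 5. That array itself enters the changes by which members were named, and the tests share arrays. The count can therefore not be set against the chance rate. That array read 11.08 for MYC (other WT 3D arrays 11.76 to 11.97), 8.89 for RRS1, 9.49 for LYAR, 4.68 for MYBBP1A, 9.72 for DDX21, 10.66 for NOP56 and 4.58 for CAD. Its median over the members was 9.87, against 10.24 to 10.31. Its labels conflict and its signal was low, as described above, and the part of either in these values was not tested.

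In ErbB2* 2D, replicate 5 was low for ODC1 at 11.99 (others 12.17 to 12.19) and for MYBBP1A at 6.02 (others 7.07 to 7.46). Replicate 4 was low for POLR1B at 5.90 (others 6.63 to 7.01), and replicate 3 for DDX21 at 11.80 (others 12.04 to 12.17). In ErbB2* 3D, replicate 2 was high for NOP2 at 11.17 (others 10.74 to 10.89).

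The response to 3D culture differed between the lines by limma's interaction test for 5 members, and for 0 under median scaling. The difference (ErbB2* minus WT, log2) was 0.98 for DDX10, 0.96 for ODC1, 0.50 for BYSL, -0.66 for FBL and -0.60 for NOP2.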

How the results depend on the processing

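Counts of members called depended on the processing more than their signs did, since no called change reversed. In the order ErbB2* against WT in 2D and in 3D, culture in WT and in ErbB2* cells, and the interaction, the counts were 4, 8, 11, 9 and 5. Median scaling gave 1, 3, 1, 0 and 0. The deposited log2 values gave 10 in 2D, 13 in 3D, 18 for culture in ErbB2* cells and 8 for the interaction. Fitting only the groups compared gave 7, 4, 3 and 16 for the pairwise comparisons. Array weights gave 8 in 2D, 13 in 3D and 18 for culture in ErbB2* cells. Without WT 2D replicates 2, 3 and 4 there were 2 calls in 2D, 2 for culture in WT cells and 2 for the interaction, and without 1, 5 and 6 the interaction had 8. Leaving out 1 array at a time gave 3 to 9, 7 to 11, 7 to 12, 7 to 17 and 5 to 6, the highest 2D and ErbB2* culture counts (9 and 17) without WT 3D replicate 5 and the lowest WT culture count (7) without WT 2D replicate 2. The cause of these shifts was not tested. Shares of all genes are given above only for the fits without WT 3D replicate 5 or a set of WT 2D arrays. For the other settings no such share is given, and not every count is listed. Those counts therefore do not tell a shift of the members from a shift of all genes. Same-numbered arrays of different groups did not deviate together (mean correlation -0.0049 over 33 pairs, 6 over 0.1), so the numbers were not taken as pairs, and with the replicate block the counts were 3, 9, 7, 8 and 6. DDX10 and RRS1 kept their calls in 3D between the lines under each of the 36 alternatives. Over all members and comparisons, 133 values lost and 120 gained a call among the alternatives. An alternative with the chip as a block was not run, since the headers name no chip.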
